A study of Homo sapiens with 13 samples.

Results

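The 2 arrays taken 120 min after stimulation, 1 after EGF and 1 after a serum mixture, were set against the 4 arrays of 60 and 240 min in MCF10A cells. They were 2 of the 13 arrays of a time course and were picked by time alone. The comparison itself was chosen with earlier results of these data known. MCF10A is a spontaneously immortalised, non-tumorigenic human mammary epithelial line. All cells had been deprived of serum for 24 h, and the groups were cells 120 min after EGF or serum, cells 60 min and 240 min after the same stimuli, and unstimulated cells. Fits of the change from 1 time to the next also used the arrays of 20, 40 and 480 min after these stimuli. EGF is the epidermal growth factor, and the serum mixture was heat-inactivated horse serum with insulin, cholera toxin and hydrocortisone. Each stimulus and time had a single array, and at a given time the EGF array and the serum array served as the 2 samples. The p-values thus reflect the spread among these arrays of a single cell line and say nothing of replicate cultures.

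Growth factors switch on transcription in waves. The first wave, the immediate early genes, needs no new protein and consists largely of transcription factors of the FOS, JUN and EGR families. Their transcripts are unstable, and a second wave of delayed early genes follows, among them phosphatases, Sprouty proteins, the NAB corepressors of EGR factors and RNA-binding proteins that damp the signal. Later transcripts prepare the cell for growth and division. The cholera toxin and hydrocortisone of the serum mixture also act through cAMP and the glucocorticoid receptor. An array taken at 120 min could therefore show 3 shapes, which were a level above both neighbouring times, a level below both, or a level that joined one neighbour and not the other.

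Levels are given as log2 of the array signal plus 6. For bright genes 1 unit is close to a 2-fold difference in signal, and for dim genes it is a larger one. Folds given here are folds of signal plus 6. Of 11963 genes on the array, 7731 were bright enough to be tested, and 5588 of these passed a stricter brightness limit and are called brighter genes here. The excursion is the level at 120 min minus the mean of 60 and 240 min. The arrays had been scaled to a common mean, so an equal mean signal (150.04 to 150.05 over 13 arrays) says nothing of their quality. The actin 3' to 5' signal ratio, a sign of RNA quality, was 1.44 (EGF) and 1.78 (serum) at 120 min. It was 1.31 (EGF) and 1.49 (serum) at 60 min, and 1.40 (EGF) and 1.45 (serum) at 240 min. The serum array of 120 min therefore had the highest ratio of the 6. Without this array the excursion fit still called 0 genes, and in the step 240 minus 120 min described later EGR3 was still past the threshold (limma, adjusted p = 0.0495) and CCN2 was not (0.108). Of 14 basal and epithelial markers 9 were on the array, and all 9 were tested. KRT5, a keratin gene, was at 12.14 (EGF) and 12.49 (serum) at 120 min, and KRT14, another, at 12.35 (EGF) and 12.62 (serum). Of 12 markers of other cell types, 11 were on the array and 2 (CD14 and COL1A1) reached the brightness limit. CD14 was not dim, at 7.63 (EGF) and 7.00 (serum) at 120 min, against a median level of 7.16 over all genes tested. COL1A1 was at 4.79 (EGF) and 4.83 (serum) at 120 min, below its levels at 60 and 240 min (excursion -0.67, and 0.167 when its probe sets were averaged).

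Promoters of 4 genes are shown because their levels mark the shapes described here. They are STX1A, which had the largest excursion above both neighbours, EGR4, an immediate early factor above both neighbours, and EGR1 and CCN2, which left their 60 min level by 240 min. EGR4, EGR1 and CCN2 were picked after their values were seen. The windows are RefSeq promoter sequences of 300 bases each on GRCh38.p14, read 5′ to 3′ on the gene's strand, and 86 of 114 named genes had an entry in that table. They lie at chr7:73719620-73719919 (minus strand, STX1A), chr2:73293499-73293798 (minus strand, EGR4), chr5:138465229-138465528 (plus strand, EGR1) and chr6:131951323-131951622 (minus strand, CCN2). Capitals mark the CArG boxes bound by the serum response factor in EGR1, and a match to the NF-kB site in EGR4 and in CCN2.
STX1A: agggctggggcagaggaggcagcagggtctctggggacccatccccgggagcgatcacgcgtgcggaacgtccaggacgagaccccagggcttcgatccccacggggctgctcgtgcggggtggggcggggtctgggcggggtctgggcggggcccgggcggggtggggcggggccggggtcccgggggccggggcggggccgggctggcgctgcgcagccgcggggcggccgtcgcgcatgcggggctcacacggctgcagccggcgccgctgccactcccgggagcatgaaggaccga
EGR4: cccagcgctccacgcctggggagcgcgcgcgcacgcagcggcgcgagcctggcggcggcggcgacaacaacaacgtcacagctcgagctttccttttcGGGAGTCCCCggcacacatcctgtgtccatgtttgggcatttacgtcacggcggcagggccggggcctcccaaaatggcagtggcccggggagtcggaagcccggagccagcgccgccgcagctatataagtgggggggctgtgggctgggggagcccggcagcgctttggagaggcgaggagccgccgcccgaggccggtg
EGR1: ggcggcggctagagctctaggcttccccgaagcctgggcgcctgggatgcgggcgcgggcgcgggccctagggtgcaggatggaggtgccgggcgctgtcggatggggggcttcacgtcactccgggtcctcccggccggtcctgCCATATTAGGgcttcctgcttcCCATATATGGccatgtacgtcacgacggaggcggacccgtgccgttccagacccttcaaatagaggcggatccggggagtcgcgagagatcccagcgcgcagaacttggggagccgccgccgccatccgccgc
CCN2: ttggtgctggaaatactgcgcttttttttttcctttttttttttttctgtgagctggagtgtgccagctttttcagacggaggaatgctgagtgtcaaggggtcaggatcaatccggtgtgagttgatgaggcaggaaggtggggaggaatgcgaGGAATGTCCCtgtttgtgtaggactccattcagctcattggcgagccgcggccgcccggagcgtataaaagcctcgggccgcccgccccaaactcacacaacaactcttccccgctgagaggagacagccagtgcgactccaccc

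Both strands were searched for the AP-1 site TGANTCA, the CArG box, the cAMP response element TGACGTCA, the NF-kB site and the E-box CACGTG. The EGR1 window held 2 CArG boxes, which began 105 and 83 bases before the start site. A CArG box occurred in 1.29% of 35116 promoter windows of this length. The EGR4 and CCN2 windows each held 1 match to the NF-kB site, 152 and 95 bases before the start, a motif found in 5.91% of windows. STX1A held none of these motifs, which says only that these letters were not in this window. Among genes above both neighbours at 120 min, 8.08% of 297 with a window held an NF-kB match, against 6.75% of 6457 tested genes with a window, and 3.7% against 4.92% held an AP-1 site. Of 15 immediate early factors with a window, 2 held a CArG box (EGR1 and SRF) and 0 an AP-1 site. These matches are descriptions of sequence and no sign of binding.

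No gene stood apart at 120 min from both neighbouring times after adjustment over all genes. With stimulus as a block, limma called 0 of 7731 genes (0% higher and 0% lower). At an unadjusted p under 0.05 there were 339 genes (4.38%), 158 higher (2.04%) and 181 lower (2.34%), and 0 were called with a variance trend and robust variances (272 unadjusted). The smallest adjusted p was 0.132, for PRSS53. The EGF and serum arrays did not share their excursions across genes. Over all genes tested the excursion after EGF and that after serum correlated at r = 0.03, and 50.1% of genes had the same sign in both. Over the brighter genes r was 0.058. Genes are not independent replicates, and all values of a stimulus share its arrays, so these are descriptions. The steps on either side were shared somewhat more, with r = 0.178 for 120 minus 60 min and r = 0.142 for 240 minus 120 min over the brighter genes. Permuting the 120 min label within each stimulus has 9 arrangements, so an exact permutation test of 1 gene could not go below p = 0.111 (one-sided).

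**Figure D1:**
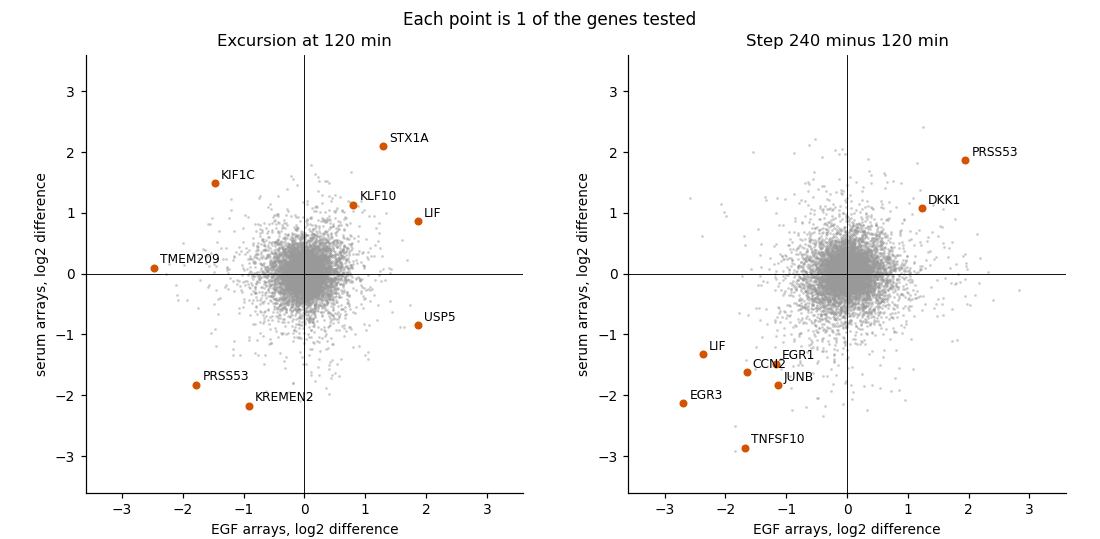
Difference in the EGF arrays (x axis, log2) against that in the serum arrays (y axis, log2), with 1 point for each of 7731 genes tested and named genes in orange; the left panel plots the excursion at 120 min and the right panel the step 240 minus 120 min. The cloud on the left has no slope (r = 0.03), and on the right EGR3, CCN2, EGR1, JUNB and LIF lie low in both stimuli.

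By shape alone, 364 genes (4.71%) had both 120 min arrays above all 4 arrays of 60 and 240 min, and 388 (5.02%) had both below. The gap between the nearest arrays was small for most of them, with a median of 0.08 above and 0.07 below. Among the 24 that also differed by at least 2-fold, 7 above (0.0905%) and 17 below (0.22%), 22 were under the stricter brightness limit (91.7%, against 27.7% of all genes tested). The largest excursions therefore lay near the dim end of the array, where small signals move log2 values most. The brighter genes held 235 above (4.21%) and 251 below (4.49%).

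The brightest of the large excursions was that of LIF, a cytokine of the interleukin 6 family. LIF stood at 9.48 (EGF) and 8.35 (serum) at 120 min, against 8.11 (EGF) and 7.96 (serum) at 60 min and 7.10 (EGF) and 7.02 (serum) at 240 min. The unstimulated array had 5.75. Both 120 min arrays were thus the highest of the 6, and the serum one by a small margin over 60 min after EGF. The excursion was 1.36 (SE 0.41, 2.57-fold, adjusted p = 0.999) and was larger after EGF (1.87) than after serum (0.86). The difference between the stimuli of 1.01 (SE 0.79) did not pass the interaction test (adjusted p = 1).

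KLF10 encodes a zinc-finger factor induced by TGF-beta and growth factors. At 120 min KLF10 had 9.43 (EGF) and 10.32 (serum), against 9.002 (EGF) and 9.24 (serum) at 60 min and 8.25 (EGF) and 9.12 (serum) at 240 min. Its excursion of 0.97 (SE 0.24, adjusted p = 0.999) was positive in both stimuli. NAB2 encodes a corepressor that binds EGR factors and limits their output. NAB2 had 6.73 (EGF) and 6.74 (serum) at 120 min, against 6.43 (EGF) and 5.05 (serum) at 60 min and 5.87 (EGF) and 5.90 (serum) at 240 min. The excursion was 0.92 (SE 0.31), and a second, dimmer probe set of NAB2 gave 1.81. Its EGF arrays of 60 and 120 min lay close together, whereas the serum arrays of those times were far apart.

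ATP8B1, a phospholipid flippase, had 7.48 (EGF) and 8.75 (serum) at 120 min, against 7.01 (EGF) and 7.14 (serum) at 60 min and 7.14 (EGF) and 7.38 (serum) at 240 min. Most of its excursion of 0.95 (SE 0.26) came from the serum array. TRIM21, an intracellular antibody receptor and ubiquitin ligase, had 7.08 (EGF) and 6.98 (serum) at 120 min, against 5.999 (EGF) and 6.06 (serum) at 60 min and 6.63 (EGF) and 6.64 (serum) at 240 min. AFF1, a scaffold of the super elongation complex that releases paused polymerase, had 9.59 (EGF) and 10.09 (serum), against 9.30 (EGF) and 9.23 (serum) at 60 min and 9.07 (EGF) and 9.16 (serum) at 240 min. The other scaffold of that complex, AFF4, had the widest gap of any gene above both neighbours (0.62), at a dim level. AFF4 was at 5.76 (EGF) and 5.23 (serum) at 120 min, against 4.46 (EGF) and 4.51 (serum) at 60 min and 4.61 (EGF) and 4.30 (serum) at 240 min. Of the other 2 AFF1 probe sets, which were dimmer, the excursions were -0.05 and -0.31, so the AFF1 pattern rests on 1 probe set.

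STX1A encodes a syntaxin that takes part in vesicle fusion and had the largest excursion above its neighbours, 1.70 (SE 0.45, 3.24-fold, adjusted p = 0.999). Its levels were 5.87 (EGF) and 5.69 (serum) at 120 min, against 3.76 (EGF) and 3.53 (serum) at 60 min and 5.39 (EGF) and 3.65 (serum) at 240 min. The deposited signals behind them were 52.1 (EGF) and 45.1 (serum) at 120 min, against 7.2 (EGF) and 5.7 (serum) at 60 min and 34.6 (EGF) and 6.3 (serum) at 240 min. The unstimulated array, at 5.18, lay above both 60 min arrays. The remaining members of the 12 largest above all 4 neighbouring arrays were dim too. Among them were YIF1B (excursion 1.17, SE 0.49), IRF2BP1 (1.05, SE 0.26), KCTD2 (1.01, SE 0.29) and B3GNT3 (1.01, SE 0.35).

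Among genes below both neighbours, PRSS53, which encodes a serine protease, had the widest gap (1.51). PRSS53 was at 3.60 (EGF) and 3.70 (serum) at 120 min, against 5.21 (EGF) and 5.50 (serum) at 60 min and 5.55 (EGF) and 5.56 (serum) at 240 min. The 2 stimuli gave nearly the same excursion, -1.78 after EGF and -1.83 after serum, for a mean of -1.80 (SE 0.15, 3.49-fold lower, adjusted p = 0.132). In deposited signal this was 6.5 (EGF) and 7.1 (serum) at 120 min, against 30.8 (EGF) and 38.4 (serum) at 60 min. Both 120 min values lie in the dimmest part of the array, and over the alternatives tried the excursion ran from -2.53 to -1.02 with a lowest adjusted p of 0.0523.

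Among the 12 genes below, next in size were KREMEN2, a receptor for Dickkopf proteins that inhibits Wnt signalling (-1.54, SE 0.35), and TFAP4, a basic helix-loop-helix factor (-1.28, SE 0.32). KREMEN2 was at 3.63 (EGF) and 3.69 (serum) at 120 min, against 4.20 (EGF) and 5.61 (serum) at 60 min and 4.87 (EGF) and 6.11 (serum) at 240 min. SMPDL3B, a membrane phosphodiesterase, was at 5.03 (EGF) and 4.32 (serum) at 120 min, against 6.11 (EGF) and 5.85 (serum) at 60 min and 6.05 (EGF) and 5.49 (serum) at 240 min. MINDY3, a deubiquitinase, only just passed the stricter brightness limit (mean level 6.21, limit 6.20). It was the one brighter gene at least 2-fold below its neighbours, with 5.19 (EGF) and 5.89 (serum) at 120 min, both under that limit. It had 6.11 (EGF) and 6.95 (serum) at 60 min and 6.60 (EGF) and 7.02 (serum) at 240 min (excursion -1.13, SE 0.18, adjusted p = 0.812). Like PRSS53, MINDY3 had excursions of one size in the 2 stimuli, -1.17 after EGF and -1.10 after serum. For TSC22D4 and RAD52 the EGF array carried most of it, with -2.08 (EGF) and -0.43 (serum) for TSC22D4 and -2.09 (EGF) and -0.35 (serum) for RAD52. For TFAP4 the serum array did, with -0.63 (EGF) and -1.93 (serum). The RAD52 value rests on 1 dim probe set, since the others, dimmer still, gave 0.18 and 0.16.

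CITED2 encodes a transcriptional coregulator that restrains hypoxia-induced transcription. Its levels were 5.34 (EGF) and 5.84 (serum) at 120 min, against 6.72 (EGF) and 6.89 (serum) at 60 min and 6.12 (EGF) and 5.91 (serum) at 240 min. Both probe sets of CITED2 gave excursions below 0 (-0.82 and -1.04), and the step from 60 min was larger than that to 240 min. Other brighter genes below both neighbours by small amounts were ATF6, a sensor of unfolded protein (-0.67, SE 0.19), the proteasome ATPase PSMC4 (-0.68, SE 0.19) and the kinesin KIF1B (-0.65, SE 0.19). In these 3 the serum excursion was the larger, with -0.36 (EGF) and -0.98 (serum) for ATF6, -0.37 (EGF) and -0.995 (serum) for PSMC4 and -0.30 (EGF) and -0.99 (serum) for KIF1B. A second, dimmer probe set of ATF6 (mean level 7.44) had an excursion of 0.02. POLR3G, a subunit of RNA polymerase III (-0.67, SE 0.20), the DNA glycosylase NEIL3 (-0.72, SE 0.16) and the MYB-family factor MYBL1 (-0.67, SE 0.14) were of that size as well. The POLR3G value rests on 1 probe set, since the other, a dimmer one, gave 0.18. The cell-cycle inhibitor CDKN1B was at 6.90 (EGF) and 6.99 (serum) at 120 min, against 7.12 (EGF) and 7.53 (serum) at 60 min and 7.41 (EGF) and 7.44 (serum) at 240 min.

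**Figure D2:**
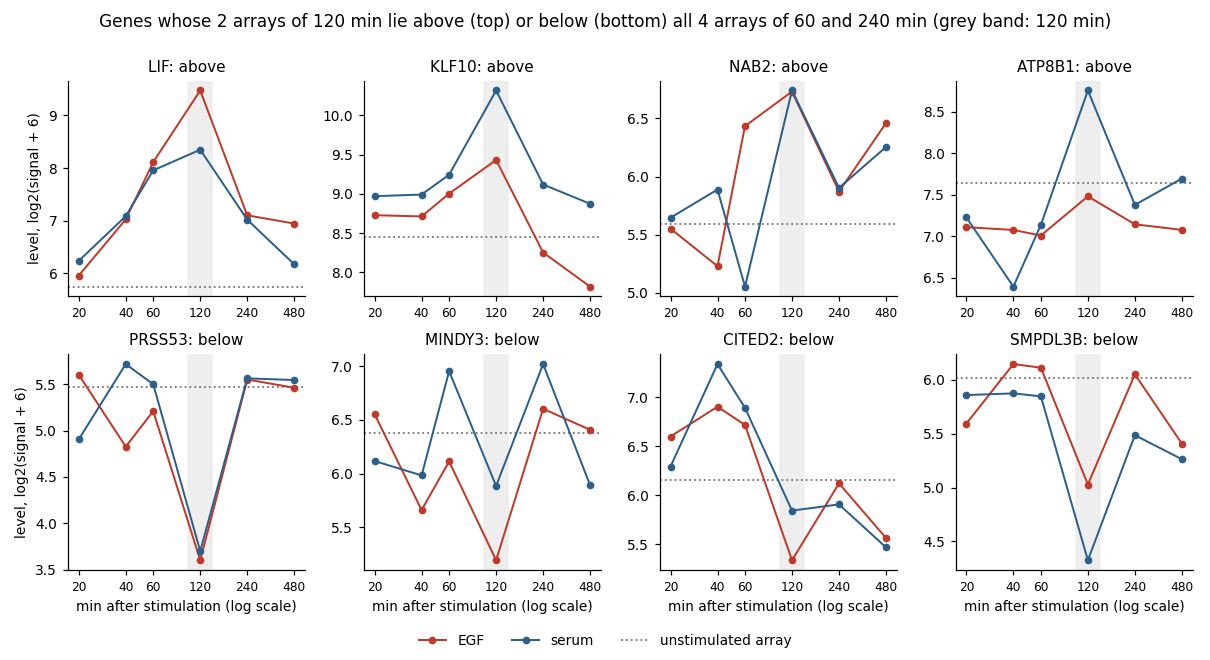
Level (log2 of signal plus 6) on each array against minutes after stimulation (log scale) for 4 genes whose 120 min arrays lay above and 4 whose 120 min arrays lay below all arrays of 60 and 240 min; red is EGF, blue is serum, the dotted line is the unstimulated array and the grey band marks 120 min. At 120 min LIF is at 9.48 (EGF) and 8.35 (serum), and PRSS53 is at 3.60 (EGF) and 3.70 (serum).

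Coming out of 120 min, 2 genes fell, and both are fast responders to growth factors. In the step 240 minus 120 min, fitted over 12 stimulated arrays, limma called 0 genes higher (0%) and 2 lower (0.0259%), with 484 at an unadjusted p under 0.05 (6.26%). EGR3, a zinc-finger factor of the first wave, had 4.64 (EGF) and 4.60 (serum) at 240 min, against 7.33 (EGF) and 6.73 (serum) at 120 min. At 60 min it stood at 7.54 (EGF) and 8.03 (serum), and on the unstimulated array at 4.10. EGR3 thus fell by 2.41 (SE 0.25, 5.32-fold, adjusted p = 0.0434, limma) between 120 and 240 min, with no overlap of the arrays. CCN2, a secreted matrix-associated protein and a target of SRF and YAP, had 9.63 (EGF) and 9.41 (serum) at 240 min, against 11.28 (EGF) and 11.03 (serum) at 120 min. CCN2 fell by 1.64 (SE 0.15, 3.11-fold, adjusted p = 0.0378, limma), and at 60 min it had been at 11.65 (EGF) and 11.85 (serum).

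Both genes were also lower at 120 than at 60 min, though not past the threshold, with steps of -0.75 for EGR3 (SE 0.25, adjusted p = 0.654) and -0.60 for CCN2 (SE 0.15, adjusted p = 0.536). For both, the second step was the larger one, while the difference between the steps was not tested. Leaving out any 1 of the 6 arrays ended the CCN2 call (adjusted p = 0.0702 to 0.375). For EGR3 all omissions but that of serum at 120 min did so (adjusted p = 0.0495 to 0.566). Both calls ended as well without the filter on dim genes (adjusted p = 0.145), with the 6 arrays alone (0.421) and without the 20 min arrays (0.0915).

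Other transcripts, first-wave factors among them, had steps of this kind with wider errors. JUNB, an AP-1 subunit, was at 7.51 (EGF) and 7.48 (serum) at 240 min, against 8.64 (EGF) and 9.31 (serum) at 120 min, where the serum array was its highest of the series. PTGS2, the inducible enzyme of prostaglandin synthesis, was at 6.399 (EGF) and 6.38 (serum) at 240 min, against 7.57 (EGF) and 8.19 (serum) at 120 min. FOSB, another AP-1 subunit, was at 3.50 (EGF) and 3.01 (serum) at 240 min, against 5.34 (EGF) and 5.51 (serum) at 120 min. The steps were -1.49 for JUNB (SE 0.26, adjusted p = 0.228), -1.49 for PTGS2 (SE 0.27, adjusted p = 0.228) and -2.17 for FOSB (SE 0.80, adjusted p = 0.74). LIF had one of -1.85 (SE 0.32, adjusted p = 0.228). TNFSF10, the death ligand TRAIL, was at 5.56 (EGF) and 4.70 (serum) at 240 min, against 7.24 (EGF) and 7.57 (serum) at 120 min, and had been at 7.91 unstimulated.

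Going the other way was DKK1, a secreted inhibitor of Wnt signalling. Its levels were 10.65 (EGF) and 11.09 (serum) at 240 min, against 9.42 (EGF) and 10.02 (serum) at 120 min, the lowest stimulated arrays of their series. This step was 1.15 (SE 0.15, adjusted p = 0.123). HERPUD1, which takes part in the degradation of misfolded proteins of the endoplasmic reticulum, was at 9.60 (EGF) and 9.61 (serum) at 240 min, against 8.91 (EGF) and 8.70 (serum) at 120 min (0.80, SE 0.12, adjusted p = 0.197). The desmosomal plaque gene PKP2 had a step of 0.77 (SE 0.18, adjusted p = 0.471). This value rests on 1 probe set, since the other, a dimmer one, gave -0.56.

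Going into 120 min, limma called 0 genes (0% higher and 0% lower, 549 or 7.1% at an unadjusted p under 0.05), and 3 with a variance trend and robust variances. EGR1, the best known EGR factor, was at 8.46 (EGF) and 7.93 (serum) at 120 min, against 9.84 (EGF) and 9.43 (serum) at 60 min. At 240 min it was at 7.28 (EGF) and 6.45 (serum), and on the unstimulated array at 7.22. The step into 120 min was -1.44 (SE 0.17, adjusted p = 0.215), and the step out of it was -1.33 (SE 0.17, adjusted p = 0.123). On this probe set EGR1 was thus midway at 120 min, and its excursion was -0.06 (SE 0.97). A second, dimmer probe set of EGR1 (mean level 6.96) had an excursion of -0.50. Its steps were -1.91 into and -0.91 out of 120 min, so there the larger step came before 120 min. With the stricter filter on dim genes both EGR1 steps were past the threshold (adjusted p = 0.0452 into and 0.0247 out of 120 min).

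SGK1, a kinase induced by glucocorticoids and serum, was near its 240 min level after EGF by 120 min. Its levels were 8.37 (EGF) and 8.99 (serum) at 120 min, against 9.57 (EGF) and 10.84 (serum) at 60 min, and it stood at 8.47 (EGF) and 9.82 (serum) at 240 min. The step into 120 min was -1.52 (SE 0.22, adjusted p = 0.329). CXCL2, a neutrophil chemokine, was at 9.35 (EGF) and 7.95 (serum) at 120 min, against 11.01 (EGF) and 10.03 (serum) at 60 min (-1.87, SE 0.37, adjusted p = 0.404). At 240 min CXCL2 was at 8.78 (EGF) and 8.16 (serum), close to its unstimulated 8.57. TNFAIP3, an NF-kB feedback inhibitor that edits ubiquitin, was at 9.86 (EGF) and 10.39 (serum) at 120 min, against 10.81 (EGF) and 11.25 (serum) at 60 min. PTGER4, a receptor for prostaglandin E2, had a step of -1.38 (SE 0.37). The pseudokinase TRIB1 was at 8.35 (EGF) and 7.36 (serum) at 120 min, against 8.39 (EGF) and 9.61 (serum) at 60 min (-1.15, SE 0.58). The TRIB1 step was thus in the serum arrays, and it ran from -1.91 to -0.38 with 1 array left out. In the fit with variance trend and robust variances, EGR1, SGK1 and TNFAIP3 were past the threshold, each lower.

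The genes named here with positive steps into 120 min were not past the threshold. NRG1, a ligand of the ERBB receptors, was at 6.54 (EGF) and 6.08 (serum) at 120 min, against 5.60 (EGF) and 4.77 (serum) at 60 min (1.13, SE 0.19, adjusted p = 0.387). The other 5 probe sets of NRG1 had steps between -0.36 and 0.35, so this value rests on 1 probe set. TGFA, a ligand of the EGF receptor, was at 9.18 (EGF) and 8.82 (serum), against 8.05 (EGF) and 8.26 (serum) at 60 min (0.85, SE 0.20, adjusted p = 0.51). ALDH1A3, which makes retinoic acid, was at 9.73 (EGF) and 9.44 (serum), against 8.58 (EGF) and 8.63 (serum) at 60 min (0.98, SE 0.25, adjusted p = 0.54). SNAI2, a repressor linked to epithelial plasticity, was at 9.21 (EGF) and 9.22 (serum), against 8.36 (EGF) and 8.68 (serum) at 60 min (0.70, SE 0.14, adjusted p = 0.449). F3, the tissue factor that starts coagulation, was at 10.89 (EGF) and 11.23 (serum), against 10.30 (EGF) and 10.47 (serum) at 60 min. At 240 min F3 was at 11.11 (EGF) and 11.02 (serum), close to its 120 min level, and NRG1 was at 6.47 (EGF) and 6.07 (serum) at that time.

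**Figure D3:**
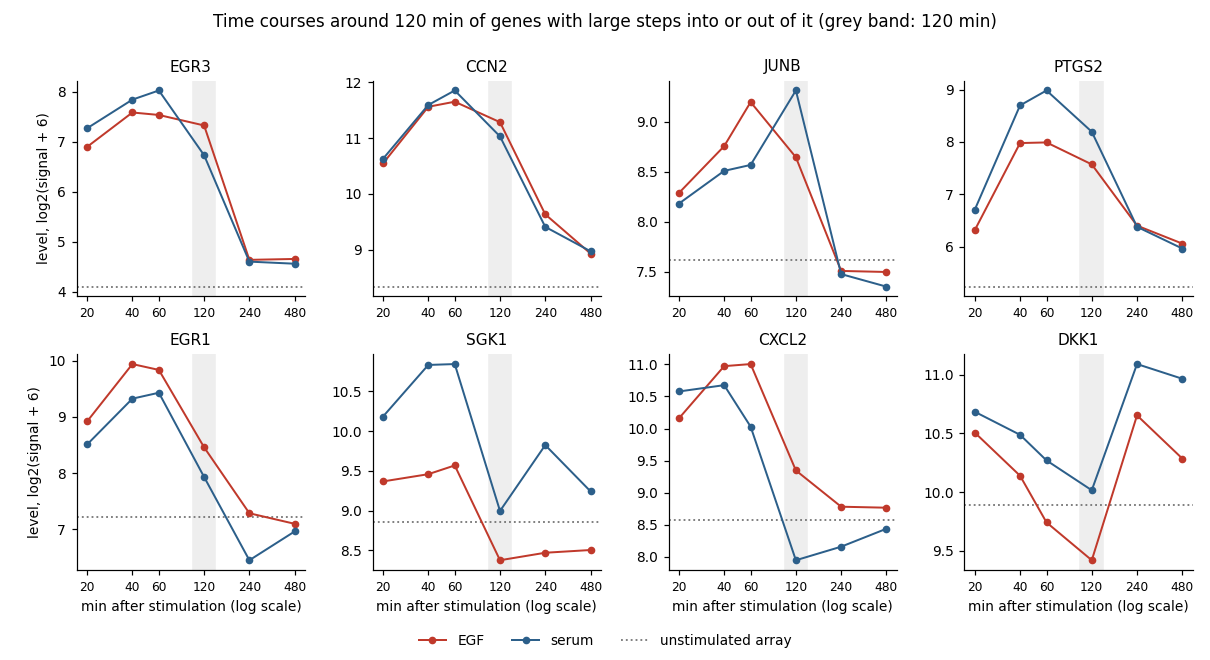
Level (log2 of signal plus 6) on each array against minutes after stimulation (log scale) for 8 genes with large steps into or out of 120 min; red is EGF, blue is serum, the dotted line is the unstimulated array and the grey band marks 120 min. EGR3 and CCN2 drop after 120 min, to 4.64 (EGF) and 4.60 (serum) for EGR3 at 240 min, while SGK1 and CXCL2 are lower at 120 min than at 60 min.

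Lists of genes with known roles were described by counts and medians, with the same quantity over all 7731 genes beside them, whose medians were -0.0023 for the excursion, 0.0013 for 120 minus 60 min and 0.0094 for 240 minus 120 min. The immediate early transcription factors, 19 of 22 tested, were the list most clearly placed on one side of 120 min. Their median difference from the unstimulated array was 1.0045 (EGF) and 1.42 (serum) at 120 min, against 1.05 (EGF) and 1.38 (serum) at 60 min and 0.09 (EGF) and 0.29 (serum) at 240 min. The 240 min arrays had a median step of -0.95 from 120 min, below 0 in 19 of 19 (48% of all genes) and lower in both stimuli in 17 (89.5%, against 25.1% of all genes). MYC and SRF were the exceptions. In this step EGR3 alone of the list was past the threshold. Going into 120 min the median step was -0.21, with 12 below 0 and 7 above 0 (50.3% of all genes). In both stimuli 11 were lower (57.9%, against 26.7% of all genes) and 5 were higher (26.3%, against 27.1% of all genes).

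No member's step into 120 min passed the threshold, and differences between members were not tested. EGR1 (-1.44), FOSB (-1.25), the stress-induced factor ATF3 (-1.02), and the orphan nuclear receptors NR4A1 (-1.01) and NR4A2 (-0.96) had the lowest steps into 120 min. KLF10 (0.75), EGR4 (0.62), IER5 (0.51) and the small MAF protein MAFF (0.33) had the highest. KLF10, EGR4 and MAFF were above all 4 neighbouring arrays (15.8% of the list, against 4.71% of all genes), and 0 were below them. EGR4 had 5.97 (EGF) and 5.42 (serum) at 120 min, against 5.28 (EGF) and 4.86 (serum) at 60 min and 4.65 (EGF) and 4.84 (serum) at 240 min. MAFF had 9.35 (EGF) and 9.55 (serum) at 120 min, against 9.05 (EGF) and 9.19 (serum) at 60 min and 8.61 (EGF) and 8.82 (serum) at 240 min. FOS itself was at 7.04 (EGF) and 7.23 (serum) at 120 min, against 8.53 (EGF) and 7.23 (serum) at 60 min and 6.48 (EGF) and 5.59 (serum) at 240 min. Its 60 and 120 min arrays after serum were thus level, while those after EGF were not.

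Of 13 tested Sprouty, SPRED, SOCS and receptor feedback inhibitors, NAB2 was above its neighbours (7.69%, against 4.71% of all genes) and 8 of 13 had excursions above 0 (49.5% of all genes). SPRY4, an inhibitor of RAS to ERK signalling, was at 7.94 (EGF) and 6.93 (serum) at 120 min, against 7.18 (EGF) and 5.89 (serum) at 60 min and 7.39 (EGF) and 6.51 (serum) at 240 min. Within each stimulus SPRY4 was highest at 120 min of these times, but the serum array of 120 min was below the EGF arrays of the other times. The 9 MAP kinase phosphatases had a median excursion of 0.08. DUSP6, which dephosphorylates ERK, was at 10.12 (EGF) and 8.68 (serum) at 120 min, against 9.62 (EGF) and 8.53 (serum) at 60 min and 9.74 (EGF) and 8.25 (serum) at 240 min. DUSP1, a phosphatase also induced by glucocorticoids, was at 9.15 (EGF) and 11.75 (serum) at 120 min, against 10.55 (EGF) and 12.28 (serum) at 60 min. Of 22 delayed early transcription factors, SNAI2 and NFKB1 were above their neighbours (9.09%, against 4.71% of all genes), and FOSL1 had an excursion of 0.17 (SE 0.24).

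Transcripts of the glucocorticoid and cAMP list, 16 tested, had a median step into 120 min of -0.48, and 10 were lower in both stimuli (62.5%, against 26.7% of all genes). Apart from SGK1 and DUSP1, the cAMP phosphodiesterase PDE4B (-1.36, SE 0.34), NFKBIA, which holds NF-kB in the cytoplasm (-0.58, SE 0.25), and the glucocorticoid-induced TSC22D3 (-0.39, SE 0.25) were among them. The list's median step was -0.42 after EGF and -0.17 after serum. Growth arrest, FOXO and p53 genes, 18 tested, had a median step into 120 min of -0.36 after EGF and -0.01 after serum (-0.26 for the mean of both). BCL6, a repressor, was at 6.43 (EGF) and 6.87 (serum) at 120 min, against 6.95 (EGF) and 8.15 (serum) at 60 min. In this list CITED2 was the 1 gene below its neighbours (5.56%, against 5.02% of all genes).

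BMP and TGF-beta regulators, 15 tested, had a median step into 120 min of 0.18 after EGF and 0.41 after serum, and 0 of them passed the threshold. The step was above 0 in 12 (50.3% of all genes), and 8 were higher in both stimuli (53.3%, against 27.1% of all genes). SKIL, a corepressor of SMAD proteins, was at 7.61 (EGF) and 9.21 (serum) at 120 min, against 8.18 (EGF) and 7.52 (serum) at 60 min, so its EGF and serum steps were opposite. The activin-binding protein FST was at 7.55 (EGF) and 8.23 (serum) at 120 min, against 7.00 (EGF) and 7.27 (serum) at 60 min. ID1, a dominant-negative helix-loop-helix protein downstream of BMP, was at 9.83 (EGF) and 11.24 (serum) at 120 min, against 10.22 (EGF) and 9.95 (serum) at 60 min and 9.07 (EGF) and 10.48 (serum) at 240 min. No member lay above or below all neighbouring arrays (0%).

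Ribosome biogenesis genes, many of them MYC targets, had small positive steps, of which 0 passed the threshold. Of 19 tested, 17 had a step into 120 min above 0 (median 0.18) and 13 were higher in both stimuli (68.4%, against 27.1% of all genes). The median step was 0.13 after EGF and 0.29 after serum. The median step out of 120 min was 0.02. POLR1B, a subunit of RNA polymerase I, MRTO4 and UTP20 were above their neighbours (15.8%, against 4.71% of all genes). POLR1B was at 6.80 (EGF) and 6.77 (serum) at 120 min, against 6.38 (EGF) and 6.70 (serum) at 60 min and 6.38 (EGF) and 6.47 (serum) at 240 min, and its margin over the nearest array was small.

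Cytokines and chemokines (13 tested) had median steps of -0.25 into and -0.26 out of 120 min. LIF was above its neighbours (7.69%, against 4.71% of all genes) and IL1RN below (7.69%, against 5.02% of all genes). IL1RN, the interleukin 1 receptor antagonist, was at 4.49 (EGF) and 4.18 (serum) at 120 min, against 4.66 (EGF) and 5.16 (serum) at 60 min and 5.10 (EGF) and 5.81 (serum) at 240 min. The IL1RN pattern rests on 1 dim probe set, since the others, dimmer still, had excursions between -0.40 and 0.70. G1 cyclins and inhibitors (12 tested) had a median step of 0.20 into 120 min, and 7 were higher in both stimuli (58.3%, against 27.1% of all genes). Cyclin D1, CCND1, was at 7.48 (EGF) and 7.76 (serum) at 120 min, against 7.32 (EGF) and 7.11 (serum) at 60 min and 8.11 (EGF) and 8.17 (serum) at 240 min, so that its 120 min arrays lay between. DNA replication and mitosis genes (21 tested) had 15 excursions below 0 (50.5% of all genes) with a median of -0.10. In the step into 120 min 13 of them were lower in both stimuli (61.9%, against 26.7% of all genes), with a median of -0.07. Housekeeping genes (12 tested) had medians of 0.04 into and -0.03 out of 120 min, and 9 epithelial and basal markers 0.05 and 0.01. The remaining lists had median excursions between -0.05 and 0.25. Across the 21 lists with at least 7 tested genes, members above or below their neighbours numbered 0 to 3. Over all genes tested 4.71% were above and 5.02% below.

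**Figure D4:**
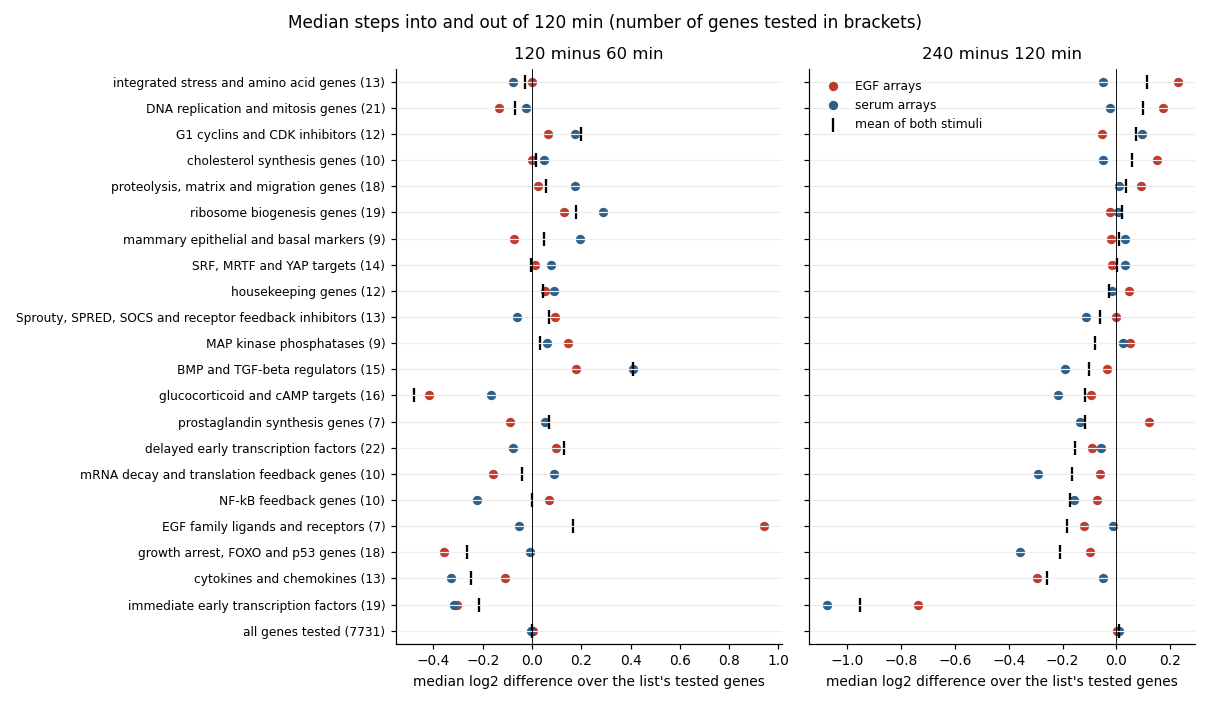
Median log2 difference over the tested genes of each list (number in brackets) for 120 minus 60 min (left) and 240 minus 120 min (right); red is EGF, blue is serum and the black bar is the median of the mean of both. The markers of other cell types (2 tested) are not plotted. Of the lists plotted, the immediate early factors stand lowest on the right (-0.95), and the glucocorticoid and cAMP list stands lowest on the left (-0.48).

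For HBEGF the 2 stimuli differed in level at 120 min more than either differed from its own neighbours. This membrane-anchored ligand of the EGF receptor was at 11.24 (EGF) and 8.53 (serum) at 120 min, against 10.25 (EGF) and 9.18 (serum) at 60 min and 10.14 (EGF) and 7.90 (serum) at 240 min. Its excursion was 1.04 after EGF and -0.01 after serum, a difference of 1.05 (SE 0.74, adjusted p = 1). The interaction was tested over all genes with 2 residual degrees of freedom, and limma called 0 of 7731 (0%), with 330 at an unadjusted p under 0.05 (4.27%) and 0 with a variance trend and robust variances (216 unadjusted). TMEM209, a nuclear envelope protein, and ASPSCR1, a tether of glucose transporters, had excursions of -2.47 (EGF) and 0.09 (serum) and of -2.00 (EGF) and 0.51 (serum). Both were dim, with EGF levels of 3.59 and 3.76 at 120 min.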

How the data were processed

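The samples were 13 Affymetrix arrays of 22277 probe sets. The deposited values are 1 intensity per probe set and array, on a linear scale. The authors obtained them with MAS5, per the submitters' processing notes, where no version was found, and had scaled the arrays to a common mean. The number of arrays limits the precision. Here the intensities were turned into log2 of signal plus 6 and, since array medians ran from 5.4 to 5.7, quantile normalized. R 4.3.3 and its package limma 3.58.1 were used. Detection calls were not used here. Platform symbols were used: 19064 of 22215 probe sets (62 controls apart) had 1 symbol, 1043 had several and 2108 had none, and Entrez numbers matched 19052 to RefSeq genes. Each gene was taken from its brightest probe set, and genes under the 40th percentile of probe set means (4.68) were left out. The stricter limit was the 60th percentile (6.20).

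Models were fitted with lmFit and eBayes, with Benjamini and Hochberg adjustment over 7731 genes at a threshold of 0.05. The excursion used 6 arrays with stimulus as a block (3 residual degrees of freedom), the steps used 12 stimulated arrays with time and stimulus (5), and the interaction used 6 arrays (2). A lone array of a stimulus was assumed to vary like the others. The EGF array of 20 min is 20 min in its title and 40 min in its description, and was used as 20 min. Genes were named by rule: the 12 largest excursions each way, the 6 largest steps each way among arrays that did not overlap, the 3 largest interactions each way, 2 members of each list by absolute excursion, and FOS, FOSL1, EGR1, EGR3, DUSP6, HBEGF, MYC and CCND1. As exceptions chosen after their values were seen, brighter genes were named by these rules too, and further list members are given as values. The comparison, the 22 gene lists and the rules were chosen with earlier results of these data known. The fits were tested on simulated data. Alternatives changed the offset (none, or 4 times as large), left out the quantile step, dropped or tightened the brightness filter, averaged probe sets, used eBayes with trend and robust variances, coded time differently, or left out single arrays or both 20 min arrays. Figures were drawn with matplotlib 3.10.9 from tables read with pandas 2.3.3 and numpy 2.4.6 in Python 3.11.15.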

Additional observations from a re-analysis of the deposited data

Results flagged for a closer look

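In 5 of the named genes the EGF array of 120 min lay on one side of both its neighbours and the serum array of 120 min on the other, which is why they are listed here. Each stimulus had 1 array at 120 min. The interaction test of the difference was past the threshold for none of the 5 (limma, adjusted p = 0.999 to 1 for USP5, KIF13B, IGLL5, KIF1C and MYC), while 330 genes had an unadjusted p under 0.05. USP5, a deubiquitinase, had an excursion of 1.86 after EGF and -0.85 after serum, a difference of 2.71. KIF13B, a kinesin, had 1.64 after EGF and -0.88 after serum, a difference of 2.52. IGLL5, an immunoglobulin lambda-like gene, had 1.57 after EGF and -0.88 after serum, a difference of 2.45. KIF1C, another kinesin, had -1.48 after EGF and 1.49 after serum, a difference of -2.97. These 4 genes were dim, with at least 1 of their 6 levels under 4. MYC was bright, at 12.01 (EGF) and 11.33 (serum) at 120 min, against 11.43 (EGF) and 11.65 (serum) at 60 min and 11.13 (EGF) and 11.73 (serum) at 240 min. Its excursion was 0.73 after EGF and -0.36 after serum, a difference of 1.09.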

How the results depend on the processing

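The counts of 0 for the excursion and the interaction stayed at 0 under each alternative tried. The step 240 minus 120 min had 2 genes. It had 4 with 4 times the offset and with the stricter filter on dim genes (DKK1 and EGR1 added), and 13 (2 higher, 11 lower) with variance trend and robust variances. It had 0 without the filter on dim genes, with the 6 arrays alone, and without the 20 min arrays, and 0 to 1 with 1 array left out. The step 120 minus 60 min had 0 genes, 1 with the stricter filter and 3 with the trend and robust fit. The excursion of NRG1 turned to -0.001, of SREBF2 to -0.093 and of COL1A1 to 0.167 when a gene's probe sets were averaged. With 1 array left out, excursions changed sign for HBEGF (-0.015 to 1.04), SDHA (-0.004 to 0.23), CD14 (-0.24 to 0.27), FOSL1 (-0.03 to 0.38), MYC (-0.36 to 0.73), CCND1 (-0.31 to 0.14), SKIL (-0.18 to 1.56), FOS (-0.46 to 0.82), EGR1 (-0.70 to 0.58), SREBF2 (-0.035 to 0.20), ETV1 (-0.052 to 0.875) and PTGS2 (-0.12 to 0.99). So did 120 minus 60 min for FOSL1 (-0.32 to 0.62), HBEGF (-0.69 to 1.02) and MYC (-0.33 to 0.59), and 240 minus 120 min for FOSL1 (-0.59 to 0.19) and MYC (-0.70 to 0.22). Such fits hold fewer arrays, and no other cause was tested. Values kept their direction and side of the threshold in 1267 pairs of gene and alternative for the excursion and 474 for 120 minus 60 min. For 240 minus 120 min there were 407 such pairs, and for the interaction 34. Outside 240 minus 120 min no gene had passed the main fit, so keeping the side there meant only staying uncalled. The direction reversed in 22 pairs for the excursion, 4 for 120 minus 60 min and 3 for 240 minus 120 min. Arrays were matched across times by stimulus, which was a block in the excursion fit. Beyond that block, no paired analysis was possible because the labels carry no replicate numbers shared between groups. Near the dim end of the arrays the offset sets the size of a difference, as for PRSS53, whose excursion ran from -2.53 to -1.02 over the alternatives.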

Other observations

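Among the genes past the threshold for 240 minus 120 min in the fit with variance trend and robust variances alone, 3 belong to none of the groups described in the report and were chosen after their values were seen. C1R, a protease of the complement cascade, was at 6.70 (EGF) and 7.13 (serum) at 240 min, against 7.63 (EGF) and 8.12 (serum) at 120 min. ALDH3A1, an aldehyde dehydrogenase of epithelia, was at 7.90 (EGF) and 7.78 (serum) at 240 min, against 8.75 (EGF) and 8.64 (serum) at 120 min. TFAP2A, a transcription factor of epithelial cells, was at 9.93 (EGF) and 9.63 (serum) at 240 min, against 10.48 (EGF) and 10.22 (serum) at 120 min. In the plain fit their adjusted p values were 0.228 for C1R, 0.257 for ALDH3A1 and 0.375 for TFAP2A (limma). The basal keratin gene KRT15, named by the rule for steps among brighter genes, was at 8.71 (EGF) and 9.10 (serum) at 240 min, against 10.37 (EGF) and 10.51 (serum) at 120 min, and at 11.19 unstimulated (-1.54, SE 0.33, adjusted p = 0.375, limma).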
